A study of Mus musculus with 19 samples.

Results

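The 77 genes described here encode the machinery that stores neurotransmitter in vesicles and releases it: 17 synaptotagmins, 24 SNAREs, 13 SNARE partners, 8 vesicle proteins, 13 Rab3 and active-zone genes and 2 genes that prime dense-core vesicles. They were chosen by gene symbol from a table of 50559 genes, and the rule used no expression values. Earlier results of these data were known when the set was chosen. The table held 18 immunoprecipitates of tagged ribosomes, 3 at each of ZT0, ZT4, ZT8, ZT12, ZT16 and ZT20 (Zeitgeber time, in hours after lights on), and 1 pooled input of spinal cord RNA taken before the precipitation. All tissue came from 10-wk-old male ChAT-Cre;RiboTag fx/+ mice on the C57BL/6J background, kept in 12 h of light and 12 h of dark and labelled wild-type, with 1 spinal cord per precipitate. Cre under control of the Chat gene switches on a hemagglutinin-tagged ribosomal protein, so the precipitates hold ribosome-bound mRNA of any spinal cell type that uses Chat, motor neurons and cholinergic interneurons alike. The question was how this mRNA varied over the light/dark cycle.

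Release of transmitter begins with vesicles that are tethered, docked and primed at the active zone. The vesicle SNARE VAMP then zippers with the plasma membrane SNAREs syntaxin and SNAP25, Munc13 proteins guide this assembly, complexin holds it and a calcium-bound synaptotagmin triggers fusion. Motor nerve terminals are known for fast and reliable release at the neuromuscular junction. Other syntaxins, VAMPs and synaptotagmins serve the Golgi, endosomes or dense-core vesicles rather than synaptic vesicles, and they entered the set through their symbols.

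The precipitates held 6302140 to 22406850 counts and the input 15239783. Of the 7 cholinergic markers, 6 had a mean at least 2-fold above the input with all 18 precipitates above it, and the list's median log2 ratio was 2.39. All 7 oligodendrocyte, 6 astrocyte and 6 microglial markers were depleted, with list medians of -3.46, -4.34 and -3.86. So were 3 of 3 excitatory and 3 of 4 inhibitory neuron markers, with list medians of -2.73 and -1.78. Replicate 2 of ZT8 stood apart: it was at the extreme of the first principal component, which held 52.8% of the variance, with a score of 42.6 against -27.9 to 29.7 in the other libraries. Changes called at ZT8 are therefore given with and without it.

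Of the 77 genes, 71 passed a filter on low counts and were tested together with all 15572 genes that passed. Cplx3, Cplx4, Vamp9, Syt8, Stx19 and Stxbp3-ps did not pass. The 77 genes took 2.48 to 2.78% of the scaled reads of a precipitate, and 62.2% of their summed level belonged to 6 genes. Per kilobase of the longest transcript of the basic annotation, 5 genes stood highest. Snap25, the plasma membrane SNARE, had 1430 CPM (read counts scaled to library size) per kb, Syp, encoding the vesicle membrane protein synaptophysin, 1330, Rab3a, a vesicle GTPase, 1100, Vamp1, the vesicle SNARE, 1030, and Cplx1, encoding complexin 1, 1020 CPM per kb. Their order depended on the length used. With the longest transcript of the full annotation, Snap25 and Vamp1 had 619 and 545 CPM per kb, below Syp at 1210, Rab3a at 1110 and Cplx1 at 1020. With the union of exons, Vamp1 had 759 and Rab3a 959 CPM per kb, below Cplx1. Below these 5 under each of the 3 lengths stood the synaptotagmins Syt11 and Syt2 at 416 and 351 CPM per kb. Nsf, the ATPase that takes used SNARE complexes apart, had 264 CPM per kb.

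Relative to the pooled input, some members were higher in the precipitates, some were lower and many were neither. Whether these shares differ from those of all genes was not tested. A gene was called enriched or depleted when the mean of the precipitates was at least 2-fold above or below the input and all 18 libraries lay on that side. With 1 input library there is no test, and fewer cells of a type cannot be told apart from less RNA per cell. The input, being whole spinal cord, also contains the cholinergic neurons. Of 71 members above the value of 3 input counts, 14 were enriched and 18 depleted. Over the 18988 genes above that value, 12.9% were enriched and 24.6% depleted. With at least 100 input counts there were 68 members, 14 of them enriched and 16 depleted, beside 16.8% and 21.6% of all such genes, and their median log2 ratio was -0.23 against 0.01 for those genes. Scaled by library totals alone, the calls became 8 enriched and 25 depleted, beside 8.09% and 32.2% of all genes, and the median over all genes moved from -0.18 to -0.52, so every ratio is relative to the scaling.

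Rab3b had the highest ratio. Its level was 25.6 CPM in the input (exact 95% Poisson interval 23.4 to 28, counting error only) and 237 to 306 CPM in the precipitates, a log2 ratio of 3.37. The other Rab3 GTPases, which sit on vesicles and bind the active zone, were enriched as well, with log2 ratios of 1.6 for Rab3a, 1.35 for Rab3d and 1.03 for Rab3c. Syp had 882 CPM in the input and 2900 to 4070 CPM in the precipitates, a log2 ratio of 1.98. Among the calcium sensors, Syt3, found outside the synaptic vesicle, had 98.7 CPM in the input and 302 to 400 CPM in the precipitates, a log2 ratio of 1.87. Syt2, the fast sensor of hindbrain and spinal synapses, had 676 CPM in the input and 2200 to 2730 CPM in the precipitates, a log2 ratio of 1.85. Each of these genes was above the input in 18 of 18 libraries. The remaining enriched members were Sv2b, Stx8, Syt4, Vamp1, Syt11, Stx18 and Stx4a.

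The lowest ratios belonged to Sypl, a synaptophysin relative of many non-neuronal cells, with 91.1 CPM in the input, 6.22 to 12.0 CPM in the precipitates and a log2 ratio of -3.25. Syt10 had 12.8 CPM in the input and 0.524 to 3.80 CPM in the precipitates, a log2 ratio of -2.85. Vamp3, the VAMP of recycling endosomes, had 42.4 CPM in the input and 3.57 to 9.61 CPM in the precipitates, a log2 ratio of -2.78. Syt6 and Unc13c, a Munc13 gene, followed at -2.22 and -2.21, and 1 precipitate, replicate 2 of ZT4, held 34.8 CPM of Unc13c on the time-course scale against 9.46 to 16.3 CPM in the others. All precipitates were below the input for these 5 genes. The glial marker lists were depleted too, as were 3 of 3 excitatory and 3 of 4 inhibitory neuron markers. The part of these cell types in the low ratios was not tested.

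Much of the core of the fusion machine was neither enriched nor depleted. The log2 ratios were 0.71 for Cplx1, 0.65 for Nsf, 0.48 for Bsn, the active-zone scaffold bassoon, 0.34 for Snap25 and 0.13 for Syn1, which tethers vesicles in the reserve pool. They were -0.10 for Unc13a, the main Munc13 of synapses, -0.11 for Cplx2, -0.14 for Vamp2, -0.23 for Syt1, -0.33 for Cadps, a priming factor for dense-core vesicles, -0.44 for Pclo, encoding the scaffold piccolo, -0.54 for Rims1 and -0.66 for Stx1a.

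**Figure D1:**
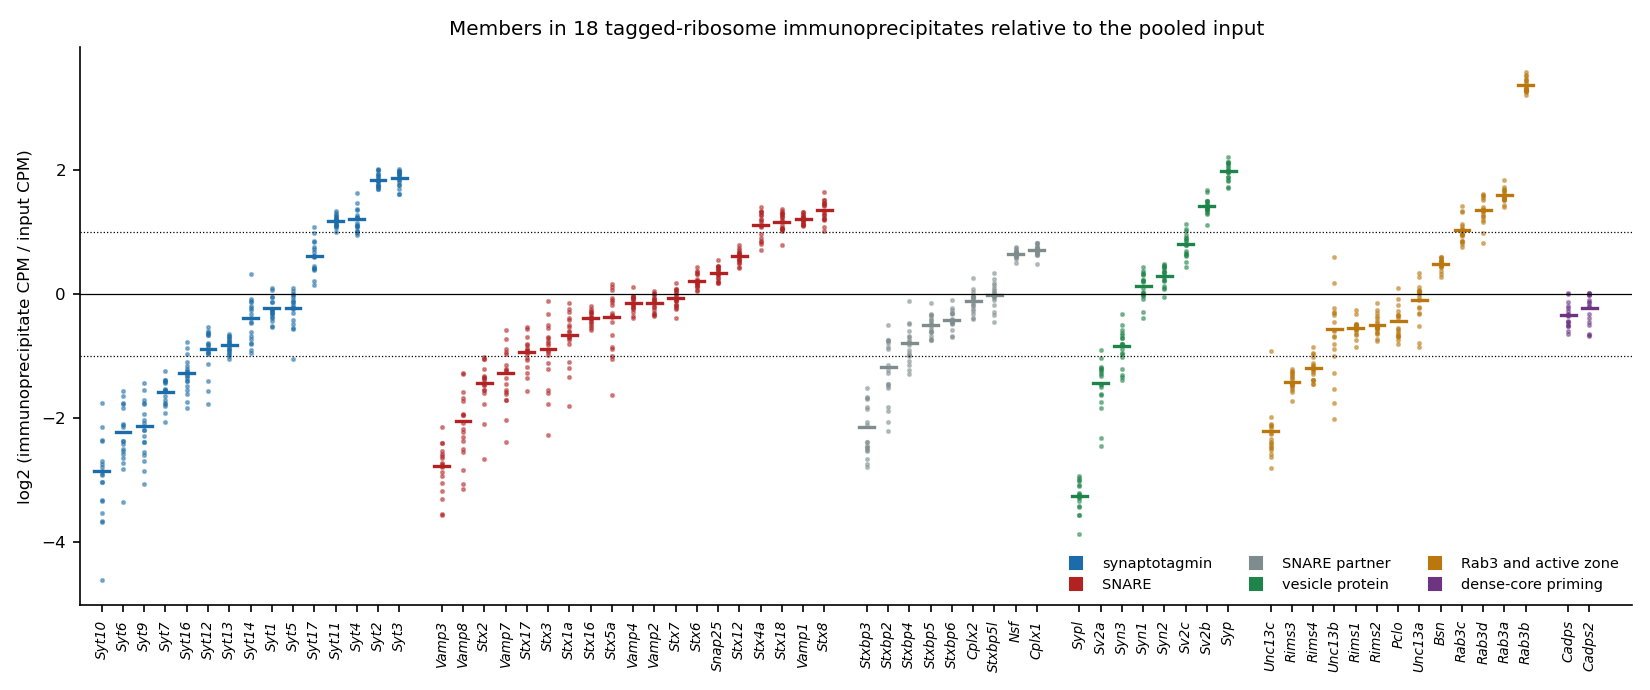
Log2 ratio of each precipitate to the pooled input for 66 of the 68 members with at least 100 input counts, grouped by role; points are 18 libraries, bars the ratio of the mean, dotted lines 2-fold. Rab3b stands highest at 3.37 and Sypl lowest at -3.25, and every role but the SNARE partners and the dense-core priming genes holds both enriched and depleted genes.

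The balance between related genes was compared with that of the whole cord in 10 pairs, and in 7 of them all 18 precipitates lay above the input. These balances are ratios of counts within 1 library, so no scaling between libraries enters them, and they compare the same pair of genes in each library, so gene length cancels. Syt2 and Syt1 both encode fast calcium sensors, Syt1 being the one of forebrain synapses. The log2 ratio of Syt2 to Syt1 counts was 2.43 in the input and 4.26 to 4.88 in the precipitates (4.52 ± 0.17, SD, n = 18). Vamp1 over Vamp2, the spinal and the forebrain vesicle SNARE, stood at 2.08 in the input and 3.20 to 3.61 in the precipitates. Cplx1 over Cplx2 was 2.46 in the input and 2.86 to 3.60 in the precipitates. In each of these 3 pairs all 18 precipitates were above the input.

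The SV2 genes, which encode a family of vesicle glycoproteins, stood in another order. Sv2a had more counts than Sv2b and Sv2c in the input, where the log2 ratio of Sv2c to Sv2a was -0.12 and that of Sv2b to Sv2a -1.84. In the precipitates Sv2c over Sv2a was 1.74 to 2.77 and Sv2b over Sv2a 0.70 to 2.03, so that Sv2a had the fewest counts of the 3 genes in all 18. Allowing for transcript length, the precipitates still had a mean log2 ratio of 1.08 for Sv2c to Sv2a and 0.71 for Sv2b to Sv2a. Rab3a over Rab3b was lower instead, with 4.48 in the input and 2.52 to 2.90 in the precipitates, with Rab3a the more abundant gene in both. Rab3a over Rab3c was 1.40 in the input and 1.65 to 2.30 in the precipitates. Rab3a over Rab3d overlapped the input, with 6.13 in the input and 6.06 to 7.16 in the precipitates, 17 of which were above it. Among the synapsins, Syn2 over Syn3 was 2.28 in the input and 3.04 to 3.97 in the precipitates, and Syn1 over Syn2 was 0.60 in the input and 0.42 ± 0.11 (SD, n = 18) in the precipitates, none of which lay above the input and the highest of which was 0.60 as well.

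**Figure D2:**
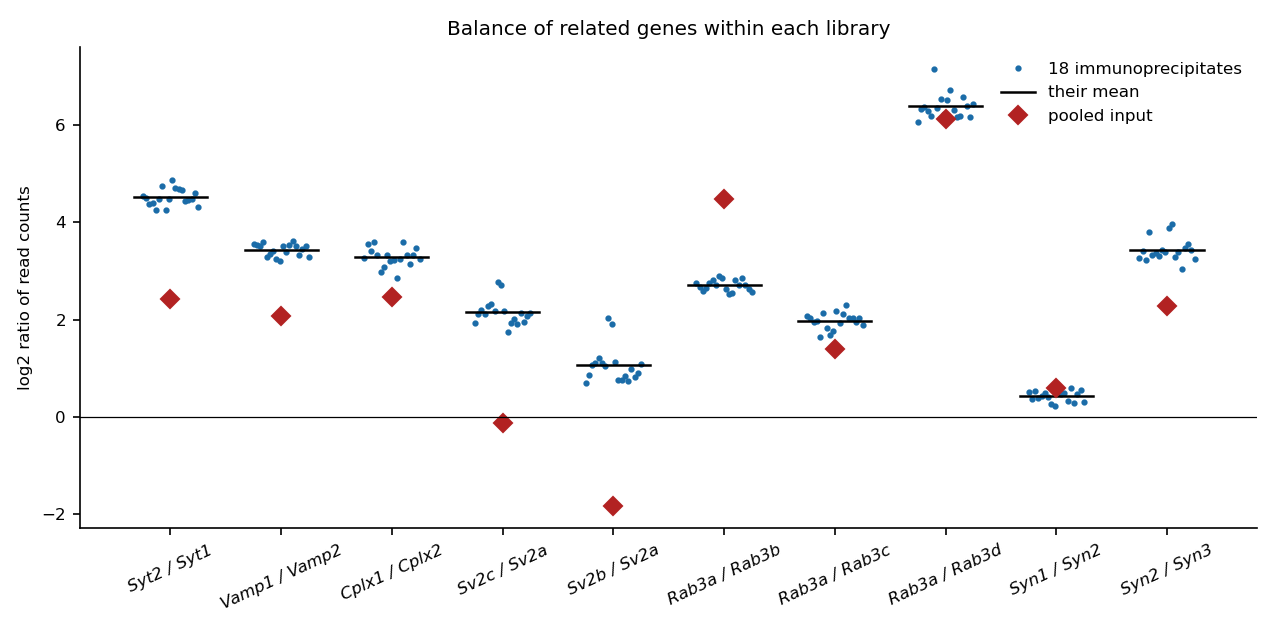
Log2 ratio of read counts of related genes within each library; points are 18 precipitates, the bar is their mean and the diamond the pooled input. Of the 10 pairs shown, all precipitates lie above the input in 7, those of Rab3a over Rab3b lie below it, and those of Rab3a over Rab3d and Syn1 over Syn2 meet or overlap it. Sv2c and Sv2b exceed Sv2a in the precipitates and not in the input.

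Over the day most genes of release varied little. The median member's highest time point was 1.3-fold above its lowest, against 1.46-fold for all genes tested. The members and all genes were not matched for level. Among the members, the widest folds fell on genes of low level, Unc13b (3.58-fold), Syt15 (2.72-fold) and Stx11 (2.52-fold). Snap25 lay between 2690 and 3410 CPM in all 18 libraries, Vamp1 between 2830 and 3380, Nsf between 899 and 1080 and Rims1, an active-zone organiser, between 33.9 and 50.6 CPM. Rab3a ran from 1470 to 2050 CPM and Cplx1 from 1920 to 2410 CPM. None of these 6 genes was called by any test below.

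By JTK_Cycle, a rank test for waves of 20, 24 or 28 h, 0 members passed a false discovery rate of 0.05, where 0.0385% of all genes passed, with a lowest adjusted p among the members of 0.0846, for Cadps. With p adjusted within the gene alone, 16 members passed, 6 with their peak in the light and 10 in the dark, beside a background of 15.9% of all genes. An edgeR fit of a 24-h cosine called 4 members, against 6.24% of all genes, and a test of any difference among the 6 time points called 4, against 6.74%.

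The 4 genes with a 24-h wave were Unc13b, Stx5a, Cadps and Syn2, and each had its fitted peak in the dark. Unc13b (chromosome 4, 43046193 to 43264873, GRCm38.p6) encodes Munc13-2, which primes vesicles for fusion. In the light phase its libraries held 6.32, 7.07 and 7.30 CPM (ZT0), 4.30, 5.38 and 5.83 CPM (ZT4), and 3.00, 2.16 and 2.58 CPM (ZT8). In the dark phase they held 3.56, 6.88 and 5.41 CPM (ZT12), 7.09, 4.90 and 5.76 CPM (ZT16), and 4.72, 13.1 and 9.86 CPM (ZT20). All 3 values at ZT8 were below every other library, whereas ZT20 was widely spread. The fitted log2 amplitude was 0.70 with a peak at ZT20.3 (edgeR, adjusted p = 0.0373), and Unc13b had the lowest p of the members among the time points as well (adjusted p = 0.0263).

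Stx5a (chromosome 19, 8741424 to 8755642) encodes syntaxin 5, a SNARE of traffic between endoplasmic reticulum and Golgi rather than of the synapse. In the light it held 18.4, 15.5 and 19.3 CPM (ZT0), 11.4, 10.1 and 11.7 CPM (ZT4), and 16.3, 6.85 and 10.6 CPM (ZT8). It held 13.3, 16.6 and 20.2 CPM (ZT12), 19.2, 21.7 and 22.8 CPM (ZT16), and 23.6, 17.0 and 16.7 CPM (ZT20) in the dark. The libraries of ZT4 were tight and low and did not overlap those of the dark phase. Its log2 amplitude was 0.49 with a peak at ZT18.0 (edgeR, adjusted p = 0.0373), and the time points differed (adjusted p = 0.0395).

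Cadps (chromosome 14, 12372560 to 12823339) fell from 197 ± 22.6 CPM (SD, n = 3) at ZT0 to 153 ± 7.71 at ZT8 and stood at 199 ± 22.0 at ZT16. Its log2 amplitude was 0.19 with a peak at ZT20.2 (edgeR, adjusted p = 0.0444). Syn2 (chromosome 6, 115134902 to 115282626), a synapsin, had 278 ± 4.02 CPM at ZT0, 229 ± 9.26 at ZT4, 224 ± 21.3 at ZT8 and 275 ± 16.3 at ZT16, with a log2 amplitude of 0.16 and a peak at ZT18.9 (edgeR, adjusted p = 0.0457). The time-point test called Pclo and Syt4 in addition, and both ran the other way. Pclo had 72.6 ± 4.57 CPM at ZT4 and 71.9 ± 14.2 at ZT8 against 51.8 ± 3.57 at ZT12 (edgeR, adjusted p = 0.0407). Syt4, which encodes a synaptotagmin that does not bind calcium in the usual way, had 331 ± 25.9 CPM at ZT4 and 348 ± 50.7 at ZT8 against 262 ± 10.2 at ZT16 (edgeR, adjusted p = 0.0438).

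These rhythm calls rested on few libraries. With each of the 18 libraries left out in turn, the count ran from 0 to 3 for JTK_Cycle, 0 to 17 for the cosine and 0 to 14 among the time points. The cosine called 0 members without replicate 2 of ZT0, ZT4, ZT8 or ZT16, replicate 3 of ZT4 or ZT8, or replicate 1 of ZT12, ZT16 or ZT20. It called 2 without replicate 1 or 3 of ZT0, 7 without replicate 3 of ZT12 or ZT16, and 17 without replicate 3 of ZT20. The time-point test called 0 members without replicate 1 or 3 of ZT0, replicate 2 or 3 of ZT8, or replicate 2 of ZT20. It called 1 without replicate 2 or 3 of ZT4, replicate 2 of ZT12, replicate 1 or 2 of ZT16, or replicate 1 of ZT20, 7 without replicate 3 of ZT20, and 14 without replicate 1 of ZT8 or replicate 3 of ZT16. JTK_Cycle called 3 without replicate 3 of ZT16. The share of all genes called in each of these fits is not given here. These swings are therefore not shown to be particular to the members. DESeq2 called 16 and 18 members for the cosine and the time points, beside 14.8% and 16.1% of all genes. These shares are of all 15572 genes, of which 4531 had no adjusted p in the DESeq2 cosine and could not be called. Among genes with an adjusted p the share is therefore higher, and the counts do not set the members apart.

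**Figure D3:**
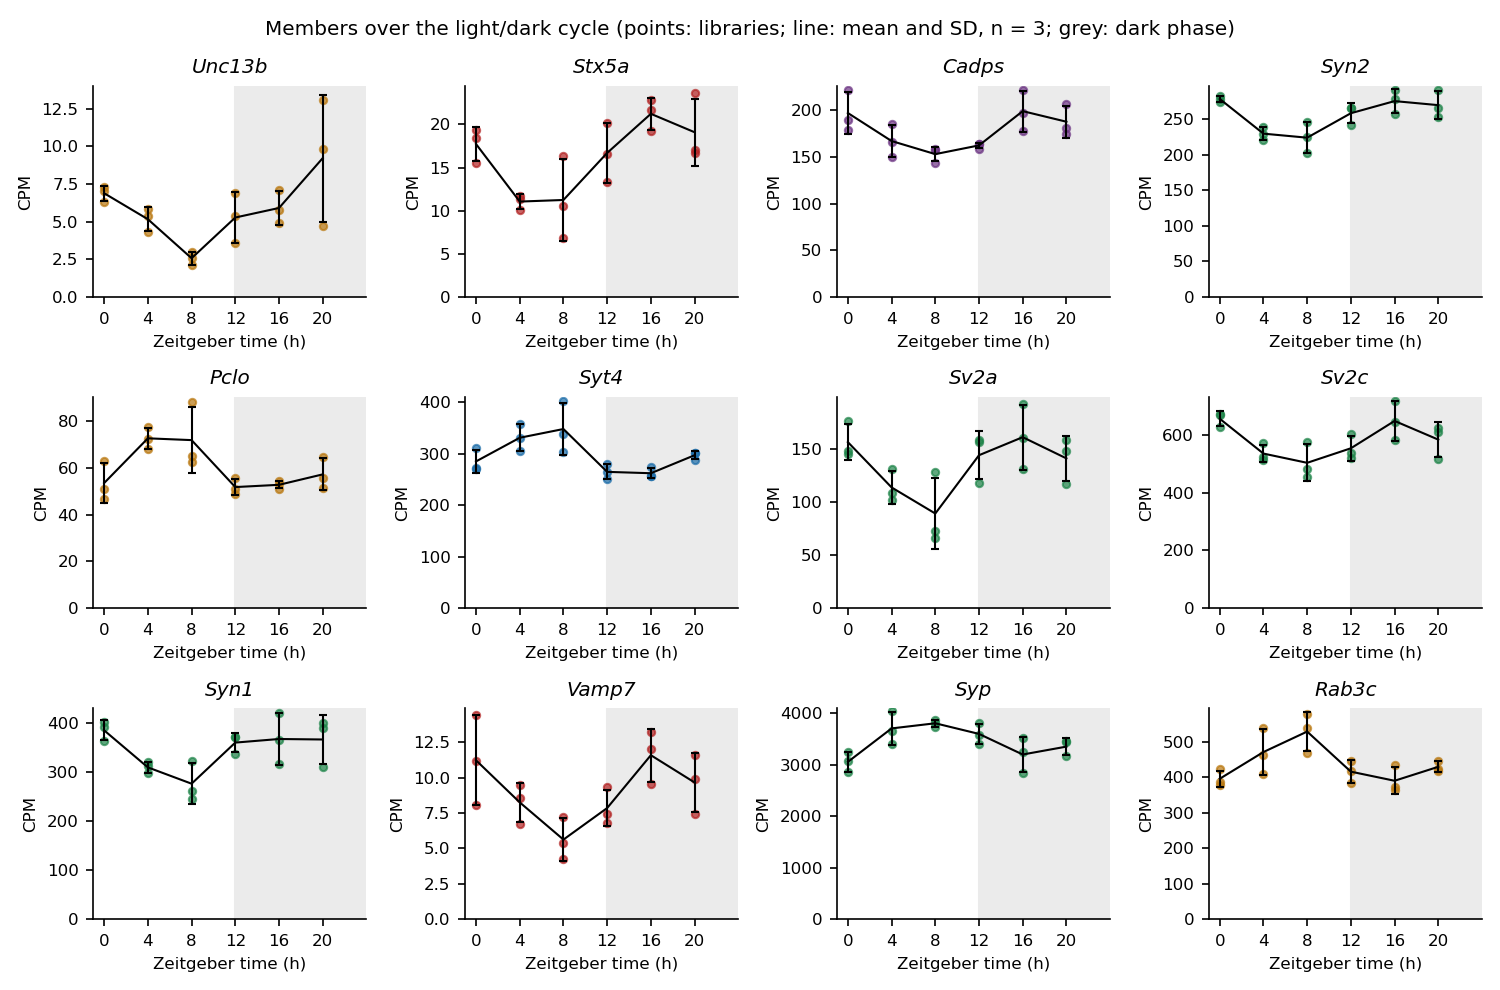
CPM of 12 members against Zeitgeber time in hours; points are libraries (n = 3 per time point), the line joins means with SD bars, and grey marks the dark phase. The lowest mean of Unc13b, Sv2a, Sv2c, Syn1, Syn2, Cadps and Vamp7 is at ZT8 and that of Stx5a at ZT4, and the highest mean of Syp, Rab3c and Syt4 is at ZT8 and that of Pclo at ZT4. ZT4 and ZT8 lie close together for several of them, as for Syn2 (229 ± 9.26 and 224 ± 21.3 CPM) and Syp (3700 ± 320 and 3800 ± 64.2 CPM).

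Pairs of time points were tested for ZT8, in the later part of the light phase, against ZT0, ZT16 and ZT20, and no pair without ZT8 was tested. The pairs with ZT0 and ZT16 were chosen with many calls over all genes known from an earlier analysis of these data. Between ZT0 and ZT8, 18 members differed, beside 18.0% of all genes; 5 were higher at ZT8, where 8.95% of all genes were, and 13 lower, where 9.02% of all genes were. Between ZT8 and ZT16, 20 members differed, beside 16.9% of all genes; 14 were higher at ZT16, where 9.11% of all genes were, and 6 lower, where 7.80% of all genes were. Of the 71 members, 35 had a positive and 36 a negative fold change at ZT8 against ZT0, with a median log2 change of 0 for the members and for all genes. The pairs share the ZT8 libraries. In all, 21 members were called in at least 1 of them, 15 lower and 6 higher at ZT8. The share of all genes called in at least 1 pair is not given here, so neither the count nor its lean is shown to be particular to the members.

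The vesicle proteins had 5 of 8 genes called in each pair, beside 18.0% and 16.9% of all genes. Differences between the roles were not tested. Syn1, Syn2, Sv2a and Sv2c were lower at ZT8 and Syp was higher. Syn3, Sv2b and Sypl were called in neither pair, with log2 changes at ZT8 against ZT0 of -0.39, -0.09 and -0.35 (edgeR, adjusted p = 0.142, 0.612 and 0.219). Sv2a (chromosome 3, 96181227 to 96195183) held 176, 145 and 148 CPM at ZT0, 128, 66.4 and 72.8 at ZT8, and 160, 192 and 131 at ZT16. The ZT8 values lay below both other times without overlap. The log2 change was -0.81 ± 0.20 (SE) at ZT8 against ZT0 (edgeR, adjusted p = 0.0110) and 0.86 ± 0.20 at ZT16 against ZT8 (adjusted p = 0.00941).

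Syn1 (chromosome X, 20860511 to 20920918) held 392, 363 and 402 CPM at ZT0, 324, 245 and 261 at ZT8, and 366, 422 and 316 at ZT16. ZT8 lay below ZT0 but overlapped ZT16. The log2 change was -0.48 ± 0.12 (SE, edgeR, adjusted p = 0.0118) at ZT8 against ZT0 and 0.41 ± 0.12 (adjusted p = 0.0240) at ZT16 against ZT8. Syn2 changed by -0.31 ± 0.09 and 0.30 ± 0.09 (adjusted p = 0.0225 and 0.0292) and Sv2c by -0.38 ± 0.11 and 0.37 ± 0.11 (adjusted p = 0.0185 and 0.0237). Syp (chromosome X, 7638580 to 7653256) held 3070, 3240 and 2850 CPM at ZT0, 3740, 3800 and 3870 at ZT8, and 3240, 2840 and 3510 at ZT16. Its ZT8 libraries were tight and above both other times, a log2 change of 0.32 ± 0.09 (adjusted p = 0.0166) and then -0.25 ± 0.09 (adjusted p = 0.0497).

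Among the Rab3 and active-zone genes, Unc13b and Unc13a were lower at ZT8 and Rab3c and Pclo higher. Unc13b fell by 1.42 ± 0.31 (SE) on the log2 scale between ZT0 and ZT8 (edgeR, adjusted p = 0.00746), the lowest p of any member, and rose by 1.19 ± 0.31 to ZT16 (adjusted p = 0.0151). Unc13a had mean levels of 68.0, 43.8 and 67.3 CPM at ZT0, ZT8 and ZT16, log2 changes of -0.64 ± 0.19 and 0.62 ± 0.19 (adjusted p = 0.0233 and 0.0267). Its ZT8 libraries overlapped those of ZT16. Rab3c held 386, 422 and 379 CPM at ZT0, 469, 577 and 540 at ZT8, and 364, 372 and 434 at ZT16, with ZT8 above both. It changed by 0.42 ± 0.11 and -0.44 ± 0.11 (adjusted p = 0.0134 and 0.0119). Pclo changed by 0.42 ± 0.14 and -0.45 ± 0.14 (adjusted p = 0.0364 and 0.0296), its ZT0 and ZT8 libraries overlapped, and without replicate 2 of ZT8 the changes were 0.24 and -0.27. Rims2, an active-zone organiser, was called for ZT16 against ZT8 alone, at 0.36 ± 0.11 (adjusted p = 0.0256); whether its changes differ between the pairs was not tested.

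Of 22 SNAREs tested, 5 were called at ZT8 against ZT0 and 4 at ZT16 against ZT8, beside 18.0% and 16.9% of all genes. The called SNAREs were not those with the highest levels. Vamp7, a VAMP of late endosomes and of spontaneous release, held 11.2, 8.06 and 14.4 CPM at ZT0, 7.22, 5.39 and 4.24 at ZT8, and 12.0, 13.2 and 9.54 at ZT16. ZT8 was below both without overlap, at log2 changes of -1.01 ± 0.25 (SE, edgeR, adjusted p = 0.0104) and 1.05 ± 0.25 (adjusted p = 0.00956). Stx1a, a syntaxin of the synapse, had means of 12.1, 7.04 and 12.0 CPM (adjusted p = 0.0428 and 0.0461). Stx5a had 17.7, 11.3 and 21.2 CPM (adjusted p = 0.0497 and 0.0123), and Stx18, another SNARE of the endoplasmic reticulum, fell from 77.8 to 60.8 CPM at ZT8 (adjusted p = 0.0250). Stx4a, a plasma membrane syntaxin, was the SNARE that was higher at ZT8, with 99.3, 122 and 100.0 CPM at ZT0 against 143, 152 and 140 at ZT8 and 103, 92.7 and 123 at ZT16 (adjusted p = 0.0194 and 0.0179).

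Of 16 synaptotagmins, 3 were called in the first pair and 5 in the second, beside 18.0% and 16.9% of all genes. Syt2 held 2240, 2400 and 2130 CPM at ZT0, 2710, 2520 and 2710 at ZT8, and 2170, 2190 and 2310 at ZT16, with ZT8 above both, at log2 changes of 0.23 ± 0.07 and -0.25 ± 0.07 (SE, edgeR, adjusted p = 0.0367 and 0.0259). Syt4 changed by -0.41 ± 0.10 between ZT8 and ZT16 (adjusted p = 0.0124). Syt6 and Syt12 were lower at ZT8 than at both other times, with log2 changes of -1.04 and -0.65 against ZT0, and Syt5 was higher at ZT16 than at ZT8 by 0.56 ± 0.17 (adjusted p = 0.0262). The level of Syt6 was low, with means of 5.67 CPM at ZT0 and 2.78 at ZT8. The ZT8 and ZT16 libraries of Syt12 overlapped. Cadps changed by -0.37 ± 0.11 and 0.38 ± 0.11 (adjusted p = 0.0265 and 0.0242). Of the 10 SNARE partners tested, among them the complexins Cplx1 and Cplx2 and Nsf, 0 were called by edgeR or JTK_Cycle in any test of time. At an unadjusted p under 0.05 there was 1, Stxbp2 at ZT16 against ZT8, and DESeq2 called 0. Over all genes, edgeR called 18.0% and 16.9% in the first and second pair, 6.24% for the cosine and 6.74% among the time points. JTK_Cycle called 0.0385%. Whether these 10 genes differ from all genes was not tested.

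These calls depended on single libraries. The pair of ZT8 and ZT0 had 0 member calls without replicate 2 of ZT8, 3 without replicate 3 of ZT8, 2 without replicate 1 of ZT0 and 3 without replicate 3 of ZT0. The pair of ZT16 and ZT8 had 0 without replicate 2 of ZT8 or replicate 2 of ZT16, 2 without replicate 3 of ZT8 and 3 without replicate 1 of ZT16. Over all genes, leaving out replicate 2 of ZT8 reduced the calls to 274 and 87. For the other libraries left out, the calls over all genes are not given here. All called members kept the direction of their change in each of these fits. Without replicate 2 of ZT8 the log2 changes of ZT8 against ZT0 among the lower members were -1.32 for Unc13b, -0.99 for Vamp7, -0.87 for Syt6, -0.65 for Sv2a, -0.55 for Stx1a, -0.53 for Unc13a, -0.50 for Syt12, -0.42 for Stx5a, -0.41 for Syn1, -0.40 for Cadps, -0.32 for Sv2c, -0.29 for Stx18 and -0.26 for Syn2. Among the higher members they were 0.39 for Stx4a, 0.34 for Rab3c, 0.31 for Syp, 0.25 for Syt2 and 0.24 for Pclo. Pclo and Stx5a moved by over 1.5 times, from 0.42 and -0.67. Without that library the changes of ZT16 against ZT8 were 1.08 for Unc13b, 1.02 for Vamp7, 0.69 for Sv2a, 0.67 for Syt6 and Stx5a, 0.54 for Stx1a, 0.52 for Unc13a, 0.48 for Syt12, 0.41 for Cadps, 0.39 for Syt5, 0.34 for Syn1, 0.31 for Rims2, 0.30 for Sv2c and 0.24 for Syn2. They were -0.41 for Stx4a, -0.36 for Rab3c, -0.28 for Syt2 and Syt4, -0.27 for Pclo and -0.24 for Syp.

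Markers of the cholinergic neurons moved between the same times. Chat, which makes acetylcholine and drives the Cre, had 56.1 CPM at ZT0, 16.9 at ZT8 and 57.0 at ZT16 (edgeR, log2 changes of -1.74 and 1.77, adjusted p = 0.0115 for both). Ache went from 930 to 595 and 894 CPM and Slc5a7, the choline transporter, from 306 to 196 and 285 CPM. At ZT8, 4 of the 7 markers (Chat, Slc18a3, Ache and Slc5a7) were called lower than at ZT0, and these and Isl1 were called higher at ZT16 than at ZT8. Prph, an intermediate filament gene that held most of the list's reads, had 2550, 3190 and 2790 CPM and was called in neither pair, as was Mnx1. The list's summed level was 4230 to 4690 CPM at ZT8, 4300 to 4770 at ZT0 and 4620 to 5030 at ZT16. Without replicate 2 of ZT8, 0 of the 7 were called in either pair and Chat changed by -1.42 and 1.44.

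The 4 inhibitory neuron markers had negative changes at ZT8 against ZT0, with a median log2 change of -0.44 and with Gad2 and Slc32a1 called lower. Their summed level was 321 to 338 CPM at ZT0, 246 to 299 at ZT8 and 290 to 332 at ZT16, where 0 were called against ZT8 by edgeR and 2 had an unadjusted p under 0.05. Without replicate 2 of ZT8, 0 were called against ZT0. The 7 oligodendrocyte markers summed to 1740 to 2000 CPM at ZT8, 1830 to 2210 at ZT0 and 1930 to 2890 at ZT16. Taking the oligodendrocyte score into the fit left 18 and 17 member calls in the pairs and 0 for the 24-h cosine. The shares of all genes in that fit are not given here, so these counts are not shown to be particular to the members. The part of the cholinergic and inhibitory markers in the changes of the members was not tested.

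**Figure D4:**
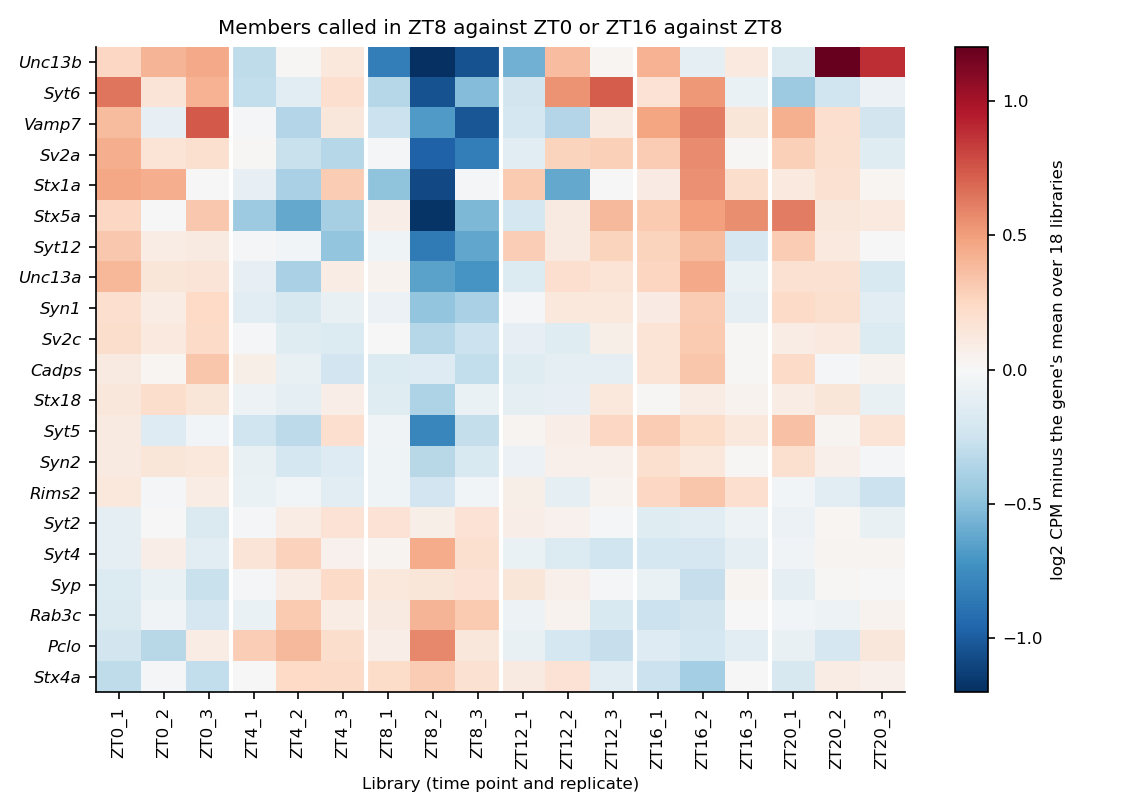
Log2 CPM of the 21 members called in ZT8 against ZT0 or ZT16 against ZT8, minus each gene's mean over the 18 precipitates (columns, labelled by time point and replicate), with the 15 lower at ZT8 above and the 6 higher below. Among the ZT8 libraries replicate 2 has the lowest level of Unc13b, Sv2a, Stx5a and Syt12, and replicate 1 is the palest for these 4 genes.

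ZT20 and ZT8, the pair of opposing times, gave 0 member calls by edgeR, with 0 genes called in all (0%). At an unadjusted p under 0.05 there were 19 members, beside 22.3% of all genes, and DESeq2 called 8, beside 7.15% of all genes. The DESeq2 share is again of all 15572 genes, with or without an adjusted p. By edgeR, Unc13b had the lowest adjusted p of the members, 0.0557, with 9.22 ± 4.23 CPM (SD, n = 3) at ZT20 against 2.58 ± 0.419 at ZT8. Without replicate 1 of ZT8 the count was 11, without replicate 3 of ZT20 it was 3, without replicate 3 of ZT16 it was 2 and without replicate 1 of ZT20 it was 1. Shares of all genes in these fits are not given here, so the swings are not shown to be particular to the members.

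The base composition of the genes that differed at ZT8 is given without a test. Their longest transcripts had a median GC content of 51.1% in the 14 with a value of 15 lower genes and 45.4% in the 6 higher genes, against 50% over all genes tested and ranges of 44.8 to 57.9% and 40.7 to 54.0%. Across the 70 members with a value, Pearson's r between GC content and the log2 change from ZT0 to ZT8 was -0.0539, a correlation across genes of the same libraries, which are not independent. Over all genes tested with a value it was -0.0351.

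Promoters were searched, on both strands, for the E-box CACGTG, bound by clock activators, for the D-box TTATGTAA and for the cyclic AMP element TGACGTCA, with overlap between motifs allowed. The windows span 250 bases before to 50 bases after a start site (RefSeq, GRCm38.p6), and 77 were held for 60 of the members. The E-box was in 11 of the 77 (14.3%) and in 7.15% of all 32851 promoters, the cyclic AMP element in 2 (2.60%) against 1.79%, and the D-box in 0 against 0.938%. Of the 4 members with a 24-h cosine, only Unc13b had a match, and in a promoter inside its annotated span. Of the members lower at ZT8, Syt6 also had an E-box and Syn1 a cyclic AMP element. The other members with an E-box were Cadps2, Nsf, Stx6, Stxbp2, Sv2b, Syt14 and Vamp4, called in no pair, and Cplx3, which did not pass the filter. Stxbp3, also called in no pair, had the other cyclic AMP element. Neither the difference from all promoters nor a link between motif and time of day was tested. A match is a run of letters and not a site of binding. The 3 promoters are shown because these genes changed at ZT8, with the matched letters in capitals.
Unc13b, chr4:43058703-43059002, plus strand: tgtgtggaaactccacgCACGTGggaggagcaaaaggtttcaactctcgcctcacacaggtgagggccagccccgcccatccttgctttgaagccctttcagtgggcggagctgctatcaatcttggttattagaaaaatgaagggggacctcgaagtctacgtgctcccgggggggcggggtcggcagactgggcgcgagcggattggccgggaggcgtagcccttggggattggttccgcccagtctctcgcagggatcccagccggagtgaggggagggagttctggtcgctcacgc
Syt6, chr3:103574995-103575294, plus strand: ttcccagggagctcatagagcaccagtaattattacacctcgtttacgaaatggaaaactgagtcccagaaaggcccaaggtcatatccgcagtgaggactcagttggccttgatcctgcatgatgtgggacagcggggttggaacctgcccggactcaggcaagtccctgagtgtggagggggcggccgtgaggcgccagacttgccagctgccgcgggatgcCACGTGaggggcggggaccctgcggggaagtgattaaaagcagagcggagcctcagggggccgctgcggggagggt
Syn1, chrX:20920869-20921168, minus strand: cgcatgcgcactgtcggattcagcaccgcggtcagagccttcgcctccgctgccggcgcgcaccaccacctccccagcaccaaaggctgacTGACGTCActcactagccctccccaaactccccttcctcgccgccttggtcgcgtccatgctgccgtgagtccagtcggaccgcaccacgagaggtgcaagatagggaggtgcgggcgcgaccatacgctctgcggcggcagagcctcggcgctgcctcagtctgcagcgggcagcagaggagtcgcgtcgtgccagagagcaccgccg

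A further 60 genes of the same pathway that the symbols did not cover were examined as a list: SNARE chaperones, active-zone partners, endocytosis genes and other vesicle membrane proteins. At ZT8 against ZT0, 20 of the 60 were called, beside 18.0% of all genes, 8 higher (8.95% of all genes) and 12 lower (9.02%), with a median log2 change of -0.07 against 0 for all genes. At ZT16 against ZT8, 16 were called, beside 16.9% of all genes, 9 higher (9.11%) and 7 lower (7.80%). Without replicate 2 of ZT8, 2 were called in each pair, Sncg and Snap47 in both, and all genes called with it kept their direction. Sncg, encoding gamma-synuclein, fell from 460 to 177 CPM at ZT8 and stood at 492 CPM at ZT16, log2 changes of -1.38 ± 0.23 and 1.48 ± 0.23 (SE, edgeR, adjusted p = 0.00519 and 0.00476). Snap47, a SNAP25 relative, went from 531 to 204 and to 532 CPM (adjusted p = 0.00519 and 0.00663). Slc18a3, the transporter that loads acetylcholine into vesicles and also 1 of the 7 cholinergic markers, went from 696 to 367 and to 708 CPM (adjusted p = 0.0113 and 0.0107). Beside 18.0% and 16.9% of all genes, the vesicle membrane sublist had 6 and 5 of 10 genes called, SNARE assembly and disassembly 7 and 7 of 15, endocytosis 5 and 4 of 19 and the active zone 2 and 0 of 16, and differences between the sublists were not tested. Without replicate 2 of ZT8 the log2 changes were -1.19 and 1.28 for Sncg, -1.15 and 1.14 for Snap47 and -0.71 and 0.73 for Slc18a3.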

How the data were processed

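Spinal cord RNA bound to tagged ribosomes was sequenced in 18 precipitates and in 1 pooled input. According to the study's methods, poly(A) libraries (100 ng of RNA, stranded, paired-end) were aligned by STAR 2.7.5 to transcripts of mm10, and the authors deposited expected counts per gene from RSEM (Ensembl 98). Of 1463 member values, 1 was not whole, and counts were rounded. All samples were processed on the same day. Fits were made in R 4.3.3 with edgeR 4.0.16 (filterByExpr, TMM scaling, quasi-likelihood F-tests of a 24-h cosine, the 6 time points and 3 pairs), over all 15572 genes and with Benjamini-Hochberg adjustment at 0.05. The common coefficient of variation was 19.2%. JTK_Cycle was run on log2 CPM (prior count 2) with an exact null distribution. The input was scaled with the precipitates. The tests were tested on simulated data. Transcript lengths (GENCODE M21) were available for 76 members.

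Replicate numbers were not given as shared animals or days, and deviations of same-numbered libraries correlated by -0.151 to 0.176 (4 of 45 pairs over 0.1), so they do not pair the libraries. The p-values measure the spread between these libraries, each from 1 cord. Alternatives were DESeq2 1.42.0, other scalings and filters, the replicate block, an oligodendrocyte score, other folds and leaving out each library. Members, lists and pairs were chosen with earlier results of these data known. Genes named are the core machinery, called members (up to 10 per test by lowest p, and beyond these by choice after their values were seen), the extremes of the input ratio and paralog sets. Results for a few genes that the naming rule covers are not reported here.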

Additional observations from a re-analysis of the deposited data

How the results depend on the processing

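Over the alternatives to the member counts, no named change of level or ratio to the input turned sign, while 212 of 990 values lost their call and 18 moved, all under library totals. JTK_Cycle called 0 members as reported, 5 with the replicate block and 16 with p adjusted within the gene alone. The 24-h cosine, with 4 as reported, called 11 with at least 1 count as the filter, 2 with the replicate block, 0 with the oligodendrocyte score and 16 by DESeq2. The time points, with 4, called 14 with at least 1 count and 18 by DESeq2. ZT20 against ZT8, with 0, called 1 with at least 10 counts, 8 with at least 1 count, 1 with the replicate block and 8 by DESeq2. The replicate block left 18 calls for ZT8 against ZT0, where 18 were reported, and 18 for ZT16 against ZT8. The causes were not tested. Other transcript lengths and the further pathway genes without replicate 2 of ZT8 were added after seeing the data. Without each library in turn, the counts ran from 0 to 3 for JTK_Cycle, 0 to 17 for the cosine, 0 to 14 for the time points, 0 to 18 for ZT8 against ZT0, 0 to 20 for ZT16 against ZT8 and 0 to 11 for ZT20 against ZT8. Shares of all genes are not given beside the counts of this paragraph, so they do not set the members apart from other genes. Members enriched over the input numbered 8 with library totals and 5 at a 3-fold limit, and depleted members 8 at that limit. DESeq2 gave no adjusted p in 22 cases, counted over members and tests together, so 1 member can count more than once. Depth limits members near the floor of 3 counts, where no ratio was given.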
